A study of Danio rerio with 6 samples.

Results

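Semaphorins, ephrins and netrins are guidance cues, and plexins, neuropilins, Eph receptors and UNC5 proteins are the receptors that read them. The genes of these families were taken from the RNA-seq count table of *ikzf1* mutant zebrafish by name: a gene was a member if its symbol began with sema, plxn, nrp1, nrp2, efna, efnb, epha, ephb, ntn or unc5, or was dcc, and if it had at least 10 counts summed over the 6 libraries. Of 94 genes whose symbols fitted, 18 were under this minimum, 6 of them with 0 counts, which left 76 members of the 32105 genes in the table. The members just inside the minimum were *EFNB2* (ENSDARG00000074050), with 11 counts, and *NTNG2* and *sema3h*, with 12 each. Those just outside were *SEMA3F* (ENSDARG00000011163), with 8 counts, *EFNB3*, with 7, and *EPHA3*, with 4. No gene named dcc reached the minimum. *UNC50* entered by its spelling although it encodes no netrin receptor, and 75 members remained without it. For 43 members the gene table gives a symbol in capitals, which several genes can share, so such members are given with their Ensembl identifier where more than 1 gene carries the symbol.

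The libraries came from 3 homozygous mutants carrying the CRISPR-induced *ikzf1* allele fr105 (replicates 1 to 3) and 3 wild-type siblings (replicates 4 to 6). All were given as 5 days post fertilization and of mixed wild-type strain background. According to the methods each library was made from an individual fish, and the allele carries an intragenic deletion in *ikzf1*, the gene of the zinc finger transcription factor Ikaros. The p-values below rest on these 6 libraries and set the difference between the groups against the spread within each group. The mutant libraries held 34759504 to 38383935 counts each and the wild-type libraries 38177112 to 39404324. *ikzf1* itself stood at 1390, 1240 and 833 CPM (counts scaled to a common library size with the TMM method) in the mutants and at 229, 176 and 264 CPM in wild type, and counts summed over the whole gene do not separate the deleted exons. The labels give whole body as the tissue. Of the skeletal muscle markers listed, *myhz2*, *pvalb1*, *pvalb2*, 1 of 2 *ACTA1* genes and 1 of 2 *TNNT3* genes had 0 counts in every library, and the summed level of all 12 muscle genes was 2.74 to 9.98 CPM. Of the neuronal markers, *ELAVL3* and 1 of the 2 genes each of *SNAP25*, *RBFOX3* and *SLC17A6* had 0 counts in every library, and the 23 neuronal genes summed to 3.81 to 8.1 CPM. The markers that define muscle and neurons were therefore absent or close to absent from libraries labelled as whole body, whereas the neutrophil markers summed to 29729 CPM or more in every library. The B cell gene *ighm* was at 251, 437 and 219 CPM in wild type. The age and the tissue are both taken as given, and neither was tested.

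Semaphorins are a large family of secreted and membrane-bound proteins that share the sema domain. Those of class 3 are secreted and act mostly through a neuropilin, which holds the ligand, paired with a plexin, which carries the signal into the cell. Membrane-bound semaphorins mostly bind plexins directly. Ephrins are held in the membrane, the A class by a lipid anchor and the B class by a transmembrane segment, and they bind Eph receptor tyrosine kinases on neighbouring cells. Netrins are secreted relatives of laminin that are read by DCC and UNC5 receptors. These proteins were first studied as guides of growing axons, and they also act in blood vessels, in bone and in cells of the immune system. Neuropilin 1 is in addition a co-receptor for vascular endothelial growth factor.

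The comparison asked which of these genes differed between fr105 mutants and wild type. Receptors that rose included the plexins *plxnb2a.1* and *plxnd1*, which were 41.6 and 1.83 times as high in mutants. The neuropilin *nrp1a* was 5.47 times as high, and the Eph receptors *epha2a*, *ephb4a* and *epha4l* were 3.52 to 4.34 times as high. Among the ligands, the semaphorins *sema4e* and *sema3ga* fell. Of the 76 members, 50 had enough counts to be tested, and with edgeR at an adjusted p under 0.05 9 of these rose (18.0%) and 6 fell (12.0%). The same test called 19.8% of all 16630 genes tested, 11.0% as higher in mutants and 8.76% as lower. The median log2 fold change, mutant over wild type, was 0.08 over the 50 members tested and -0.005 over all genes. Without *UNC50*, 9 of 49 rose and 6 fell. In 7 of the 50 all mutant libraries, but not all wild-type libraries, reached the level of the filter on low counts, and in 5 the reverse held. Such genes could pass through the group where they were higher, so the shares above are a description of the genes that passed. Among the members called, *SEMA4C* and *plxnb3* were of the first kind and *SEMA6A* of the second. Among those not called but without overlap, *sema3ab*, *epha7* and *EPHB3* (ENSDARG00000103576) were of the first kind. *plxna3*, *SEMA4D* and *sema5a* were of the second. In each of the 15 members called the 3 mutant and the 3 wild-type libraries did not overlap. Across the 50 tested, 13 members were higher and 10 were lower with no overlap, while 41.9% of all genes tested had no overlap, 21.3% as higher and 20.6% as lower. An exact two-sided permutation test over 3 against 3 libraries cannot give a p below 0.1, and it gave this value for each member without overlap.

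Grouped by role, 8 of the 23 receptors tested rose (34.8%) and 1 fell (4.35%), with a median log2 fold change of 1.03. Of the 26 ligands tested, 1 rose (3.85%) and 5 fell (19.2%), with a median of -0.25. Over all genes tested 11.0% rose and 8.76% fell, which is also the background for the subfamilies and gene lists below. The grouping by role was made after the values were seen, and the difference between receptors and ligands was not tested. The counts of ligands moved with the settings: without the filter on low counts 3 rose and 3 fell, and without wild-type replicate 6 3 rose and 2 fell. The 8 receptors that rose were *plxnb2a.1*, *nrp1a*, *epha4l*, *epha2a*, *ephb4a*, *plxnd1*, *PLXNA2* and *plxnb3*, and the receptor that fell was a *PLXNB1* gene. The ligand that rose was *SEMA4C*. The ligands that fell were *sema4e*, *sema3ga*, *SEMA4B*, *SEMA6A* and *NTN4*. Of the 15 members called, 8 were also called with each of the 6 libraries left out in turn, and these were *plxnb2a.1*, *nrp1a*, *epha4l*, *epha2a*, *sema4e*, *ephb4a*, *sema3ga* and *plxnd1*. Without mutant replicate 3 there were 8 calls in all, without mutant replicate 1 there were 10, and the count of falling members was 2 without mutant replicate 1, mutant replicate 3, wild-type replicate 5 or wild-type replicate 6.

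**Figure D1:**
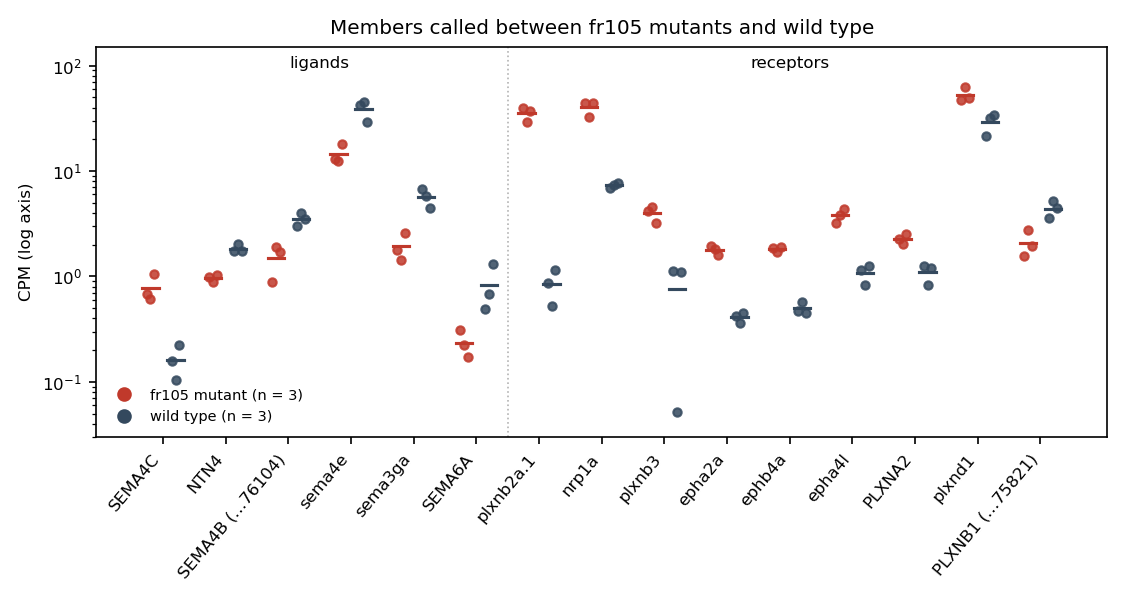
Level of each of the 15 members called, in CPM on a log axis, in 3 fr105 mutant libraries (red) and 3 wild-type libraries (dark blue), with ligands left and receptors right of the dotted line; points are libraries and bars are means. In every gene the mutant and wild-type points are apart, and *plxnb2a.1* goes from at most 1.15 CPM in wild type to at least 29.2 CPM in mutants.

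Among the semaphorins, 28 were members and 19 were tested, of which 1 rose and 4 fell, with a median log2 fold change of -0.23. The most strongly called was *sema4e* (ENSDARG00000052997), a membrane-bound semaphorin of class 4. It was at 13.1, 12.4 and 18.1 CPM in mutant replicates 1, 2 and 3 and at 42.4, 44.7 and 28.9 CPM in wild-type replicates 4, 5 and 6. The lowest wild-type library, replicate 6, was still above the highest mutant, replicate 3. The mean was 14.6 ± 3.12 CPM in mutants and 38.7 ± 8.51 CPM in wild type (SD, n = 3 each). The log2 fold change was -1.41 with a standard error of 0.21 (edgeR, adjusted p = 0.00291).

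*sema3ga* (ENSDARG00000042545) encodes a secreted semaphorin of class 3, the class read by neuropilins. Its levels were 1.8, 1.42 and 2.58 CPM in mutants and 6.77, 5.79 and 4.44 CPM in wild type. The groups did not overlap, and as for *sema4e* the 2 closest libraries were mutant replicate 3 and wild-type replicate 6. The log2 fold change was -1.55 with a standard error of 0.27 (edgeR, adjusted p = 0.00669).

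*SEMA4B* (ENSDARG00000076104), of class 4, was at 0.888, 1.89 and 1.72 CPM in mutants and at 3.03, 4.0 and 3.54 CPM in wild type. All 3 mutants were below all wild-type libraries, and the log2 fold change was -1.23 with a standard error of 0.31 (edgeR, adjusted p = 0.028). The call was lost without mutant replicate 1 or 3 or without wild-type replicate 5 or 6, where the adjusted p reached 0.0836. A further 2 semaphorins were called at means under 1 CPM in both groups. *SEMA4C* (ENSDARG00000079611), whose mouse counterpart is a ligand of plexin-B2, rose from 0.104 to 0.224 CPM in wild type to 0.612 to 1.06 CPM in mutants, a log2 fold change of 2.25 with a standard error of 0.47 (edgeR, adjusted p = 0.014). *SEMA4C* passed the filter on low counts through its mutant libraries alone, so it was tested only because of the group where it was higher. Its call was lost without mutant replicate 3 or wild-type replicate 5, with an adjusted p of up to 0.065. *SEMA6A* (ENSDARG00000102165), which in the mouse is read by plexins of class A, fell from a mean of 0.823 ± 0.42 to 0.236 ± 0.0718 CPM (SD, n = 3 each; edgeR, adjusted p = 0.0434). Its wild-type libraries all reached the level of the filter and its mutant libraries did not all do so. *SEMA6A* too could thus be tested through the group where it was higher. It was called in only 1 of the 6 fits with a library left out, that without wild-type replicate 4, and the adjusted p reached 0.14 in the others. It was not called by the fit without a filter on low counts, and with halved counts it was not tested.

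The semaphorin with the most counts was *sema4aa* (ENSDARG00000077103), a class 4 gene whose mammalian counterpart is present on immune cells. It had 191, 252 and 200 CPM in mutants and 192, 288 and 215 CPM in wild type. The groups overlapped throughout, and the log2 fold change was -0.11 with a standard error of 0.18 (edgeR, adjusted p = 0.691). The direction of this small estimate depended on wild-type replicate 5, without which it was 0.08. Its copy *sema4ab*, at 29.6 ± 7.04 against 33.3 ± 1.51 CPM, and *sema6bb*, at 25.8 ± 2.58 against 21.0 ± 3.56 CPM (SD, n = 3 each), overlapped between groups as well. Of the 14 semaphorins tested and not called, 3 had no overlap. *sema3ab*, a class 3 gene, was at 2.12 to 3.09 CPM in mutants and at 0.104 to 1.17 CPM in wild type (edgeR, adjusted p = 0.0575), and it was called by DESeq2 (adjusted p = 0.00704), without the filter and with halved counts. *SEMA4D* was at 0.209 to 0.834 against 1.15 to 1.69 CPM (edgeR, adjusted p = 0.08), and *sema5a* at 0.111 to 0.313 against 0.349 to 0.732 CPM (edgeR, adjusted p = 0.085). SEMA4D is known in mammals as a semaphorin of T cells and a ligand of plexin-B1. The other 9 semaphorins had no more than 20 counts in any library and were not tested.

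The plexins are the main receptors of semaphorins, and 11 of 13 members were tested. Of these 4 rose and 1 fell, with a median log2 fold change of 0.87. *plxnb2a.1* (ENSDARG00000003811) is a class B plexin, the class that reads class 4 semaphorins in mammals. It stood at 39.9, 29.2 and 36.8 CPM in mutants and at 0.862, 0.519 and 1.15 CPM in wild type. Every mutant library was more than an order of magnitude above every wild-type library. The mean was 35.3 ± 5.52 CPM against 0.843 ± 0.314 CPM (SD, n = 3 each), and the log2 fold change was 5.38 with a standard error of 0.27 (edgeR, adjusted p = 1.64e-05). With a library left out the log2 fold change was between 5.13 and 5.67.

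This gene has near copies. On the GRCz12tu assembly, a later build than that of the counts, *plxnb2a.1*, *plxnb2a.2* and *plxnb2a.3* follow each other. Reads that match more than 1 of these copies may have been lost or misplaced in the counting. *plxnb2a.3* was at 23.3, 10.5 and 37.2 CPM in mutants and at 11.6, 2.44 and 10.6 CPM in wild type, so that mutant replicate 2 lay below wild-type replicates 4 and 6 (log2 fold change 1.53, standard error 0.59; edgeR, adjusted p = 0.107). *plxnb2a.2* had 15, 1 and 21 counts in mutants and 5, 1 and 2 counts in wild type and was not tested. In both of these copies mutant replicate 2 was the lowest mutant library, and wild-type replicate 5 was the lowest wild-type library. ENSDARG00000094799, which the gene table gives as *si:dkey-183c2.5* and which is therefore no member, is named plxnb2a in a supplementary table of the study. It had 32, 26 and 18 counts in mutants and 3, 0 and 2 counts in wild type (log2 fold change 3.92, standard error 0.71; edgeR, adjusted p = 0.00746).

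*plxnd1* (ENSDARG00000086057) encodes plexin D1, a semaphorin receptor of endothelial cells that shapes the trunk vessels of the zebrafish embryo. Its levels were 47.5, 62.9 and 48.9 CPM in mutants and 21.7, 31.6 and 33.7 CPM in wild type. The highest wild-type library stayed below the lowest mutant, and the log2 fold change was 0.87 with a standard error of 0.19 (edgeR, adjusted p = 0.0148). *PLXNA2* (ENSDARG00000060372), of the class that pairs with neuropilins, had 2.25, 2.03 and 2.52 CPM in mutants and 1.25, 0.831 and 1.2 CPM in wild type (log2 fold change 1.05, standard error 0.27; edgeR, adjusted p = 0.0307). This call was kept only without wild-type replicate 4, and the adjusted p reached 0.102 in the other 5 fits with a library left out.

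*plxnb3* (ENSDARG00000032990), another class B plexin, was at 4.15, 4.56 and 3.18 CPM in mutants and at 1.12, 0.0519 and 1.1 CPM in wild type. Wild-type replicate 5, with 2 counts against 43 and 44 in the other wild-type libraries, stood apart within its group. This library did not reach the level of the filter on low counts, so *plxnb3* could be tested through the group where it was higher. The log2 fold change was 2.38 with a standard error of 0.69 (edgeR, adjusted p = 0.0466), and the call was kept only when this library was left out, while the adjusted p rose to 0.124 in the other fits of this kind. With all libraries, a robust fit gave an adjusted p of 0.0508 with edgeR. The plexin that fell was *PLXNB1* (ENSDARG00000075821), whose mammalian counterpart is the receptor of SEMA4D. It had 1.57, 2.73 and 1.95 CPM in mutants and 3.55, 5.14 and 4.44 CPM in wild type, without overlap (log2 fold change -1.07, standard error 0.26; edgeR, adjusted p = 0.0255). The call was lost without mutant replicate 1 or 3 or without wild-type replicate 5 or 6, with an adjusted p of up to 0.0851.

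The plexin with the most counts, *plxnc1* (ENSDARG00000015278), whose mammalian counterpart binds SEMA7A, had 694, 704 and 653 CPM in mutants and 573, 756 and 592 CPM in wild type. The wild-type range enclosed the mutant values, and the log2 fold change was 0.09 with a standard error of 0.13 (edgeR, adjusted p = 0.648). Its ligand gene *sema7a* was at 2.56 ± 0.918 and 2.21 ± 0.1 CPM (SD, n = 3 each; edgeR, adjusted p = 0.651). *plxnb2b*, the copy of the plexin-B2 gene outside the cluster, was at 9.69, 10.6 and 12.0 CPM in mutants and at 12.8, 17.7 and 15.3 CPM in wild type. It thus lay in the opposite direction to *plxnb2a.1* with no overlap (log2 fold change -0.50, standard error 0.16), but it was not called by edgeR (adjusted p = 0.0561), whereas DESeq2 and upper quartile scaling called it. *plxna3* was also lower in all 3 mutants, at 0.167 to 0.687 against 0.941 to 2.28 CPM (edgeR, adjusted p = 0.0555), and was called by DESeq2 (adjusted p = 0.0166) and with halved counts. *PLXNA4*, at 7.36 ± 2.5 against 3.59 ± 2.04 CPM (SD, n = 3 each), and the other *PLXNB1* gene (ENSDARG00000017211), at 10.3 ± 1.25 against 11.8 ± 1.58 CPM, overlapped between groups.

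**Figure D2:**
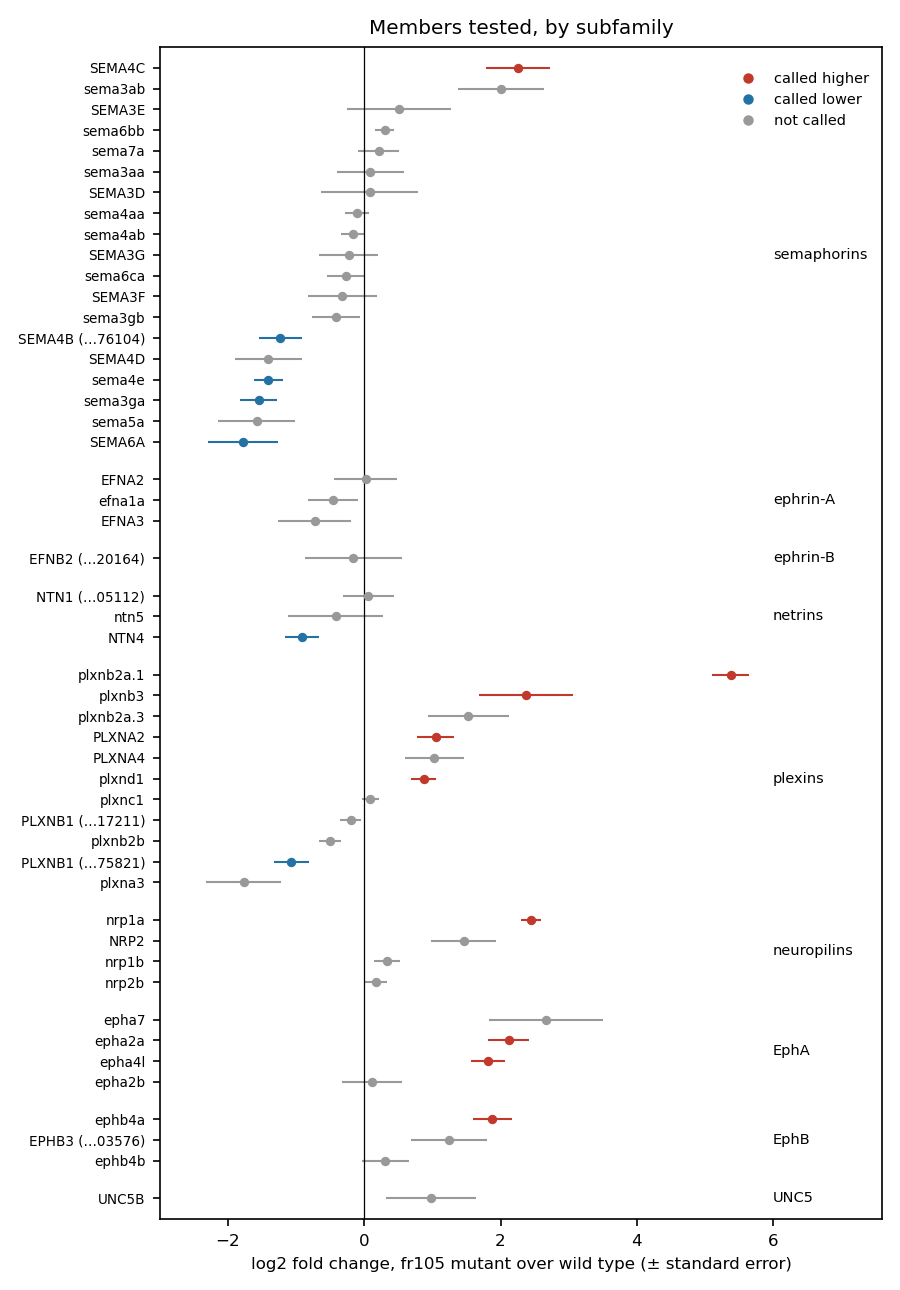
Log2 fold change, mutant over wild type, of the 49 members tested other than *UNC50*, by subfamily; points are edgeR estimates, bars are standard errors, and colour marks the call at an adjusted p under 0.05. The 8 estimates of neuropilins and EphA receptors all lie above 0, from 0.11 to 2.67, while the semaphorins spread from -1.78 to 2.25.

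The members held 4 neuropilin genes, and all 4 were tested. *nrp1a* (ENSDARG00000102153), a neuropilin 1 gene, was at 43.7, 32.6 and 44.1 CPM in mutants and at 6.9, 7.42 and 7.68 CPM in wild type. The wild-type libraries lay close together, with a mean of 7.33 ± 0.4 CPM, and the mutants, at 40.1 ± 6.52 CPM (SD, n = 3 each), were all above them. The log2 fold change was 2.45 with a standard error of 0.15 (edgeR, adjusted p = 3.66e-05) and was between 2.38 and 2.59 with a library left out. The second neuropilin 1 gene, *nrp1b*, did not follow this pattern. It had 24.7, 25.6 and 31.7 CPM in mutants and 26.1, 15.7 and 23.1 CPM in wild type, which overlapped (log2 fold change 0.34, standard error 0.19; edgeR, adjusted p = 0.249). Of the neuropilin 2 genes, *NRP2* (ENSDARG00000096546) was at 1.88, 2.17 and 3.15 CPM in mutants and at 1.1, 0.312 and 1.2 CPM in wild type, higher in each mutant but not called by edgeR (adjusted p = 0.0651) and called by DESeq2 (adjusted p = 0.0189), and *nrp2b* was at 7.64 ± 0.975 and 6.81 ± 1.06 CPM (SD, n = 3 each).

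Of the Eph receptors, which bind ephrins, 7 of 13 members were tested, 3 rose and none fell, and the 4 others tested had adjusted p-values between 0.0578 and 0.881 with edgeR. At an unadjusted p under 0.05, 4 of the 7 were higher and 0 were lower, and DESeq2 likewise called 0 of them lower. The share of all genes at this unadjusted threshold was not counted, so such counts, here and below, have no background beside them. *epha4l* (ENSDARG00000010767), an EphA receptor gene, had 3.19, 3.84 and 4.38 CPM in mutants and 1.15, 0.831 and 1.25 CPM in wild type. The lowest mutant was above every wild-type library, and the log2 fold change was 1.82 with a standard error of 0.25 (edgeR, adjusted p = 0.00229). *epha2a* (ENSDARG00000017354), a gene of the epithelial and endothelial receptor EphA2, was at 1.93, 1.84 and 1.6 CPM in mutants and at 0.418, 0.363 and 0.449 CPM in wild type. Its libraries lay close together within each group, and the log2 fold change was 2.12 with a standard error of 0.30 (edgeR, adjusted p = 0.00231). The copy *epha2b* overlapped, at 0.94, 2.64 and 1.95 CPM in mutants and 1.05, 1.61 and 2.44 CPM in wild type (edgeR, adjusted p = 0.881).

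*ephb4a* (ENSDARG00000100725) encodes EphB4, the receptor that marks venous endothelium and reads ephrin-B2 of arteries. It was at 1.85, 1.72 and 1.92 CPM in mutants and at 0.47, 0.571 and 0.449 CPM in wild type, without overlap, and the log2 fold change was 1.88 with a standard error of 0.29 (edgeR, adjusted p = 0.00352). The copy *ephb4b* was at 0.764 ± 0.159 and 0.615 ± 0.0902 CPM (SD, n = 3 each; edgeR, adjusted p = 0.558). *epha7*, at 0.286 to 0.89 CPM in mutants and 0 to 0.157 CPM in wild type, and *EPHB3* (ENSDARG00000103576), at 0.544 to 0.584 and 0.105 to 0.449 CPM, were higher in each mutant but not called (edgeR, adjusted p = 0.0578 and 0.156). DESeq2 called *epha7* (adjusted p = 0.0297) and not *EPHB3* (adjusted p = 0.228). A level of 1 CPM was 34.9 to 40.1 counts in these libraries, so the values of genes under 1 CPM rest on few reads.

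None of the 4 ephrins tested was called by edgeR, and of these the number with an unadjusted p under 0.05 was 0, as was the number called by DESeq2. The ephrin-A gene with the most counts, *EFNA2* (ENSDARG00000031372), had 0.992, 1.06 and 0.63 CPM in mutants and 0.418, 1.22 and 0.998 CPM in wild type (log2 fold change 0.02, standard error 0.46; edgeR, adjusted p = 0.977). *EFNB2* (ENSDARG00000020164), a gene of the ligand of EphB4, had 1.41, 0.556 and 1.37 CPM in mutants and 2.56, 0.286 and 0.898 CPM in wild type. Here the wild-type libraries held both the highest and the lowest value, and the log2 fold change was -0.16 with a standard error of 0.71 (edgeR, adjusted p = 0.894). A difference was thus not detected for these ligands, given the spread among their libraries and standard errors of 0.46 and 0.71. The signs of both estimates depended on single libraries. *EFNA2* was at -0.31, -0.06 and -0.11 on the log2 scale without wild-type replicate 4, mutant replicate 1 and mutant replicate 2, and at -0.03 with upper quartile scaling, and *EFNB2* was at 0.91 and 0.16 without wild-type replicate 4 and mutant replicate 2. *EFNA1* (ENSDARG00000018787), whose counts were 6, 26 and 28 in mutants against 0, 0 and 4 in wild type, did not pass the filter on low counts. It was called as higher by DESeq2 (adjusted p = 0.00842) and by edgeR without this filter (adjusted p = 0.0409), settings in which 21.3% and 12.8% of all genes tested were called.

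Of the 6 netrin genes, 3 were tested and 1 fell. *NTN4* (ENSDARG00000102066), the gene of netrin 4, a netrin of basement membranes, was at 0.992, 0.89 and 1.03 CPM in mutants and at 1.75, 2.02 and 1.75 CPM in wild type. The groups did not overlap, and the log2 fold change was -0.92 with a standard error of 0.25 (edgeR, adjusted p = 0.0389). The call was lost in each of the 6 fits with a library left out, where the adjusted p reached 0.122, and without the filter on low counts. *NTN1* (ENSDARG00000105112), a gene of netrin 1, was at 1.07 ± 0.431 and 1.03 ± 0.113 CPM (SD, n = 3 each; edgeR, adjusted p = 0.926). The netrin receptor gene *UNC5B* (ENSDARG00000033327) was at 2.77, 1.5 and 0.515 CPM in mutants and at 1.41, 0.623 and 0.399 CPM in wild type. The mutants spread widely and overlapped with wild type (log2 fold change 0.98, standard error 0.66; edgeR, adjusted p = 0.32). *UNC50*, which shares only the spelling, was at 22.9 ± 1.02 and 23.5 ± 0.87 CPM (SD, n = 3 each).

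The 26 members not tested had 11 to 64 counts in all and at most 28 in any library. In 4 of them, *EFNB1*, *epha4b*, *NTNG1* and *EFNA1*, every mutant library had more counts than every wild-type library, and in 0 of them had every mutant fewer. Among all 4309 genes with at least 10 counts that were not tested, 5.62% had more counts in every mutant and 9.24% had fewer. In CPM, where equal counts are parted by library size, *SEMA6C*, *EPHB3* (ENSDARG00000031548), *EPHB2* (ENSDARG00000037373) and *efna4* were also higher in every mutant. The share of all untested genes that were so in CPM was not counted, so this has no background beside it. No fold change is given for these genes at such counts.

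Because both genes of a pair are read in the same library, the ratio of their counts does not depend on the scaling between libraries. The pairs were chosen after the values were seen, and their ratios are a description with no test. The counts of *nrp1a* were 1.77, 1.28 and 1.39 times those of *nrp1b* in mutants and 0.265, 0.472 and 0.332 times those in wild type. *nrp1a* was thus the more counted neuropilin 1 gene in every mutant and the less counted in every wild-type library. For *plxnb2a.1* over *plxnb2b* the ratio was 4.12, 2.76 and 3.05 in mutants but 0.0673, 0.0294 and 0.075 in wild type, so the order changed here as well. Neither *nrp1b* nor *plxnb2b* was itself called (edgeR, adjusted p = 0.249 and 0.0561). The ratio of *ephb4a* to *ephb4b* was 1.97, 2.38 and 3.05 in mutants but 0.75, 1.1 and 0.643 in wild type. That of *epha2a* to *epha2b* was 2.06, 0.695 and 0.824 in mutants but 0.4, 0.226 and 0.184 in wild type. Both were higher in each mutant than in each wild-type library. Among the ligands, the ratio of *sema3ga* to *sema3gb* was lower in each mutant, at 2.12 to 2.56 against 3.71 to 6.19, as was that of *sema4e* to *sema4ab*, at 0.39 to 0.605 against 0.841 to 1.34.

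**Figure D3:**
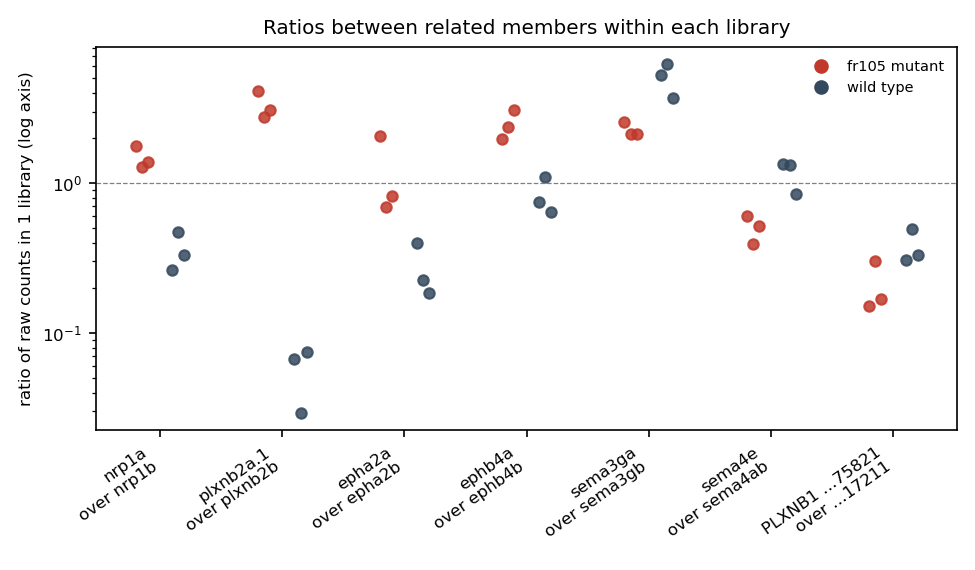
Ratio of the counts of related members within each library, on a log axis with a dashed line at 1, for 3 fr105 mutants (red) and 3 wild-type libraries (dark blue); each point is a library. The mutant points lie above the wild-type points for the first 4 pairs and below them for the last 3, and *nrp1a* over *nrp1b* goes from 0.265 to 0.472 in wild type to 1.28 to 1.77 in mutants.

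The proteins that work with these receptors were followed with 3 lists. Of the co-receptors and effectors of plexins and neuropilins, 26 of 37 genes were tested, 10 rose and 4 fell, with a median log2 fold change of 0.35. The 3 with the smallest adjusted p all rose. *farp1*, a guanine nucleotide exchange factor, had 51.0 CPM in mutants and 12.6 CPM in wild type on average (log2 fold change 2.02, standard error 0.15; edgeR, adjusted p = 0.000114). *erbb2*, a receptor tyrosine kinase that associates with class B plexins in mammals, had 8.08 against 0.208 CPM (log2 fold change 5.27, standard error 0.43; edgeR, adjusted p = 0.000159). *arhgef12b*, whose mammalian counterpart is bound by class B plexins, had 36.2 against 6.15 CPM (log2 fold change 2.56, standard error 0.21; edgeR, adjusted p = 0.000183). The 4 genes that fell were *dpysl5b*, *mical1*, *mical2a* and *ARHGEF12* (ENSDARG00000030532). This related *ARHGEF12* gene had 90.3 CPM in mutants and 123 CPM in wild type (log2 fold change -0.45, standard error 0.12; edgeR, adjusted p = 0.0307).

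Among Eph receptor effectors and ephrin partners, 9 of the 35 genes tested rose and 7 fell, with a median of -0.08. Their leading calls were *inppl1a*, a lipid phosphatase gene whose mammalian product binds EphA2, with 79.0 against 22.9 CPM (edgeR, adjusted p = 9.58e-05), the kinase gene *src*, with 3.63 against 0.967 CPM (edgeR, adjusted p = 0.000738), and *sdcbp2*, a syntenin gene, with 404 against 197 CPM (edgeR, adjusted p = 0.00249). Of the netrin co-receptors and effectors, 5 of 25 rose and 4 fell, with a median of 0.06. The leading genes were *ptk2aa*, a focal adhesion kinase gene, with 7.13 against 0.56 CPM (edgeR, adjusted p = 0.000197), *evla*, an actin regulator that fell from 21.5 to 7.69 CPM (edgeR, adjusted p = 0.000325), and *wasla*, an activator of actin branching, with 22.3 against 0.276 CPM (edgeR, adjusted p = 0.000341). Each of these lists of partners, that of plexins and neuropilins included, thus held calls in both directions.

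Several members are known from blood vessels, so endothelial markers were followed as well. Of 26 endothelial genes, 24 were tested, 17 rose and 0 fell with edgeR, and at an unadjusted p under 0.05 18 were higher and 1 was lower. DESeq2 called 18 of the 26 as higher and 0 as lower. The summed level of the list was 658 to 719 CPM in mutants and 552 to 645 CPM in wild type, and without its most abundant gene, *fli1rs*, 495 to 542 and 360 to 414 CPM. *fli1rs* was the gene with the lower level, at 166 against 203 CPM (edgeR, adjusted p = 0.11), so leaving it out widens the gap between the sums. None of the markers of the list was at 0 over all libraries. *cdh5*, the gene of the endothelial cadherin, was at 7.0, 12.7 and 9.62 CPM in mutants and at 0.627, 0.753 and 1.35 CPM in wild type (log2 fold change 3.42, standard error 0.35; edgeR, adjusted p = 0.000459). *sox7*, at 13.2 against 0.291 CPM, *vwf*, at 21.9 against 0.517 CPM, and *etsrp*, at 16.4 against 0.446 CPM, rose as well. In wild-type replicate 5 *sox7*, at 0.156 CPM, and *vwf*, at 0.208 CPM, were under the level of the filter on low counts. Such genes, here and in the other lists, could be tested through the group where they were higher. The counts of calls in the lists therefore describe the genes that passed. *TIE1*, at 99.4 against 109 CPM, *fli1a*, at 170 against 162 CPM, and *erg*, at 71.0 against 54.1 CPM, were not called. In bulk libraries, a change in the number of cells of a type and a change in RNA per cell cannot be told apart. The part of endothelial cells in the rise of *nrp1a*, *plxnd1*, *ephb4a* and *epha2a* was not tested.

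Markers of other cells differed too. Of the stromal genes 5 of 14 tested rose and 0 fell, with sums of 157 to 179 CPM in mutants and 62.3 to 126 CPM in wild type and *LUM* at 0 in all libraries. Of the thrombocyte genes 5 of 10 rose and 1 fell, with sums of 1648 to 1788 and 1080 to 1238 CPM. Without the most abundant gene, *f13a1b*, the thrombocyte sums overlapped, at 785 to 906 and 726 to 912 CPM. The stromal and macrophage sums stayed apart without theirs, *FN1* and *cd74a*. They were 124 to 141 against 43.7 to 55.6 CPM and 1998 to 2138 against 1458 to 1841 CPM. Of the macrophage genes 5 of 20 rose and 0 fell, with sums of 2842 to 3002 and 2315 to 2666 CPM. Of the erythroid genes 3 of 10 rose and 0 fell, with sums of 22883 to 29594 and 11559 to 26184 CPM, and 7 were higher and 0 lower at an unadjusted p under 0.05 and likewise by DESeq2. Of the 12 neutrophil genes 1 rose and 0 fell, with sums of 44211 to 58741 and 29729 to 43061 CPM. Without *lyz*, the most abundant, these sums were 25046 to 37935 and 21059 to 25134 CPM and overlapped. The gene that rose was listed as *mpx*, and the gene table names it *EPX*. At an unadjusted p under 0.05 1 was lower, *nccrp1*, which the study uses as a marker of innate lymphocytes, and DESeq2 called 1 lower. The calls among B cell and T cell markers were all in the lower direction. Of the B cell genes 10 of 14 fell and 0 rose, with sums of 527 to 617 CPM in mutants and 926 to 1374 CPM in wild type, and of the T cell genes 7 of 12 fell and 0 rose, with sums of 139 to 212 and 341 to 378 CPM. The part of these cell types in the changes of *sema4e*, *sema3ga*, *SEMA4B* and *PLXNB1* was not tested. At an unadjusted p under 0.05, 0 stromal genes and 1 macrophage gene were lower, 0 B cell and 0 T cell genes were higher, and DESeq2 called 0 genes of these 4 lists in these directions. Of the kidney tubule genes edgeR called 0 of 14, with 3 at an unadjusted p under 0.05 and 1 called by DESeq2. Their sums were 131 to 234 CPM in mutants and 129 to 241 CPM in wild type. Most of this was *slc20a1a*, without which the sums were 17.5 to 36.0 and 14.0 to 22.6 CPM and overlapped.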

How the data were processed

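RNA-seq was analysed in 6 libraries, 3 per genotype, and the genotype was taken from the labels. The authors prepared stranded poly-A libraries, sequenced them in paired-end mode, aligned the reads with STAR 2.5.2b-1 and assigned them to genes of an Ensembl annotation with featureCounts 1.6.0.1. The deposited values are raw counts per gene without normalization. The methods give default parameters for the tools unless stated and name no strand setting; featureCounts by default ignores strand, so reads of overlapping antisense genes may not be told apart. Of the counts from 1 to 4, 78.0% to 79.9% were even numbers in each library, as would arise if each mate of a read pair was counted, so an alternative used halved counts. Any 2 libraries differed by more than sampling noise (chi-square per gene of 44.1 or more).

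Counts were scaled with TMM, filtered with filterByExpr (10 counts at the median library size, 15 in total) and tested with the quasi-likelihood F test of edgeR 4.0.16 in R 4.3.3, two-sided, with Benjamini-Hochberg adjustment over 16630 genes and a threshold of 0.05. Standard errors were derived from the F statistic, as the size of the log2 fold change over the root of F. The fit was tested on simulated data. CPM were computed with the TMM-scaled library sizes. Precision is limited by 3 libraries per group and is given by the standard errors.

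Symbols came from a table of gene names for 26269 genes and from the supplementary tables of the study for 92 more. Members and gene lists were chosen with earlier results of these data known. Members called with a mean of 1 CPM or more in a group and the most counted member of each subfamily are given with all 6 values. From each list of partners the 3 genes with the smallest adjusted p are named, and from that of plexins and neuropilins also those that fell. Marker genes were named to show calls and absent calls, beyond the rule, after their values were seen. Alternatives were other scalings (library size, upper quartile, RLE), DESeq2 1.42.0, no filter, a mean of 50 counts, a robust fit, halved counts, each library left out, an adjusted p of 0.01 and an absolute log2 fold change of 1. No genome of the build and no sequence table was used here, so no sequence is shown. Levels were not divided by gene length, so they are compared between groups and not between genes.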

Additional observations from a re-analysis of the deposited data

How the results depend on the processing

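With all libraries, 12 of the 15 members called were called under each of the other scalings, tools and filters that tested them. RLE and library size scaling called the same 15 of 50 members tested, upper quartile scaling 16 of 50 and the robust fit 14 of 50. DESeq2 called 21 of 71, the fit without a filter 15 of 76, of which 13 were shared, and halved counts 16 of 40. A mean of at least 50 counts called 11 of 27 and did not test *epha2a*, *ephb4a*, *SEMA4C* and *SEMA6A*. An adjusted p under 0.01 left 1399 of 3291 genes, 7 of 15 members, 5 of the 9 that rose and 2 of the 6 that fell, and asking for a log2 fold change of 1 or more in size left 1810 genes. With a library left out, 1927 to 2837 genes and 8 to 15 members were called, of which 6 to 10 rose and 2 to 7 fell. Over these alternatives, receptors that rose numbered 5 to 10 and those that fell 0 to 3, and ligands that rose 0 to 3 and those that fell 2 to 5, counts added after the data were seen. Small log2 fold changes turned. With a library left out, *EFNA2* was between -0.31 and 0.33, *EFNB2* between -0.63 and 0.91 and *sema4aa* between -0.24 and 0.08, and *EFNA2* was -0.03 with upper quartile scaling. The cause was not tested. No paired analysis was possible because mutants are numbered 1 to 3 and wild type 4 to 6. The filter kept 26 members with few counts out of the test.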
